A study of Canis lupus familiaris with 12 samples.

Results

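Ion channels and aquaporins, the proteins that carry ions and water through epithelial membranes, were followed in dog kidney cells grown as flat sheets or as cysts. Genes were taken by symbol from the probe sets that name 1 gene: potassium channels (KCN), chloride channels and exchangers (CLCN), chloride intracellular channel proteins (CLIC), subunits of the epithelial sodium channel (SCNN1), aquaporins (AQP), transient receptor potential channels (TRPC, TRPM, TRPV) and anoctamins (ANO). The stem had to be followed by digits, or by 1 letter and digits, and SCNN1 by 1 letter. This gave 206 of 42924 tested probe sets, which named 122 of 15115 genes. TRPC4AP and ANOS1, which share the letters without being channels of these families, were left out, and KCNMA1 and other symbols with 2 letters before the number were treated as partners.

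Every culture was of 1 established epithelial line from dog kidney, MDCK (Madin-Darby canine kidney) II tet-off, kept in medium with G418. The control cells formed flat sheets in type I collagen (2D, 6 arrays), and the other cells formed multicellular cysts in 3-dimensional type I collagen (3D, 6 arrays). Both were harvested on day 8 by collagenase digestion, and RNA of 4 samples was pooled for each Affymetrix dog array, so p-values measure the spread between pools. The values were intensities, used as log2(intensity + 1), and each change is the 3D mean minus the 2D mean on that scale with its standard error (SE). A gene was said to have risen or fallen where limma's moderated test had an adjusted p under 0.05 over all tested probe sets, and the brightest probe set stood for a gene with several.

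A tubule epithelium moves salt and water by dividing its channels between an apical and a basolateral membrane. Sodium enters through the epithelial sodium channel or cotransporters and is pumped out, potassium recycles through leak and rectifier channels that also set the membrane voltage, and chloride leaves through channels whose opening draws water through aquaporins. Secretion of chloride and water into the lumen is the process by which MDCK cysts are known to fill, whereas transient receptor potential channels mostly admit calcium and other cations in response to stretch, osmolarity, temperature or lipids.

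The groups separated on the first principal component, which held 66.0% of the variance, and median intensity lay between 89.9 and 93.7 on every array. Of 8 listed markers of tubule epithelium, 7 were measured, and all 7 lay above the control level defined below on all 12 arrays. CDH1, KRT8 and KRT18 rose, by 1.02, 0.64 and 0.18, and CDH16 and PAX2 fell, by 0.19 and 0.17. The summed intensity of the 7 was 25979 to 29730 in 2D and 31192 to 32944 in 3D. Above the control level on all 12 arrays also lay 2 of 6 fibroblast, 4 of 5 leukocyte and 3 of 4 endothelial markers. In the same lists COL1A2 and PECAM1 lay at or below it throughout. The summed intensity of the fibroblast markers was 354 to 418 in 2D and 331 to 370 in 3D, that of the leukocyte markers 484 to 526 and 466 to 539, and that of the endothelial markers 336 to 374 and 304 to 340. Of these markers CD14 rose, by 0.43, and 2 in each list fell. Among nephron segment markers, 4 of 5 of the proximal tubule fell (summed intensity 761 to 854 in 2D and 650 to 724 in 3D). Of 4 thick ascending limb markers CLDN16 rose by 0.73 and the other 3 did not pass, with SLC12A1 at or below the control level throughout. Of the 5 intercalated cell markers ATP6V1B1 rose by 0.71 and 3 fell. All 5 principal cell markers lay above the control level, and 1 of them fell. The part of these markers in the channel results was not tested. An RNA control ratio, the mean log2 signal of the 5′ over the 3′ control probe sets of actin and GAPDH, was -0.91 ± 0.14 in 2D and -0.54 ± 0.17 in 3D (SD, n = 6 arrays each; exact two-sided permutation test over 924 assignments, p = 0.00866). This ratio moved with the culture and its part in the results was not tested beyond a fit that held it as a covariate.

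Bacterial and tag control probe sets, which match no dog gene, gave the level below which a signal cannot be told from background. Their 95th percentile lay at 5.71 on average and between 5.59 and 5.91 on single arrays. Of the 206 channel and aquaporin probe sets, 100 lay above it on all 12 arrays, 64 on some and 42 on none. That is 48.5% above on all arrays, against 64.4% of all tested probe sets. By gene, 68 of 122 were above on all 12 arrays (55.7%, against 74.6% of all genes), 34 on some and 20 on none. When the highest control probe set of each array replaced the 95th percentile, 63 of the 206 probe sets remained above on all arrays. AQP1, AQP2, SCNN1G and KCNJ1 were among the genes lost by that change. On 3D replicate 1 they read 5.95, 6.04, 6.08 and 5.76, where the highest control probe set lay at 6.11.

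The genes above the control level on all 12 arrays included every measured subunit of the sodium channel (SCNN1A, SCNN1B, SCNN1G and SCNN1D) and all 5 measured CLIC genes. They included 7 of 11 aquaporins, AQP1, AQP2, AQP3, AQP5, AQP6, AQP7 and AQP8, and 5 of 7 CLCN genes, CLCN1, CLCN2, CLCN3, CLCN4 and CLCN7. Among anoctamins they were ANO6, ANO8, ANO9 and ANO10. In the transient receptor potential families they were TRPC1, TRPC2, TRPC7, TRPV4, TRPV6 and every measured TRPM gene except TRPM1. Among potassium channels 31 of 66 were above, with KCNJ1, KCNJ4, KCNJ11, KCNJ12 and KCNJ15 of the inward rectifiers, KCNK1, KCNK4, KCNK5, KCNK6, KCNK7, KCNK15 and KCNK16 of the leak channels, KCNN4 and KCNT1 of those opened by calcium or sodium, and KCNE2, KCNE3 and KCNE4 of the accessory subunits. The other 14 were voltage-gated: KCNA2, KCNB2, KCNC2, KCND1, KCND3, KCNG1, KCNG3, KCNH1, KCNH2, KCNH3, KCNH6, KCNQ1, KCNQ3 and KCNS2.

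The 20 genes above the control level on no array were AQP4 and AQP9, ANO3 and ANO5, CLCN6, KCNE5, KCNJ2, KCNK13, KCNN2, KCNN3, KCNT2, TRPM1, TRPV2, KCNH4, KCNH5, KCNH8, KCNQ5, KCNS1, KCNS3 and KCNV2. The remaining 34 were above it on some arrays, among them ANO1, ANO4, AQP10, AQP11, CLCN5, KCNJ13, KCNK9, TRPV5 and KCNU1. A signal at or below this level is not evidence that a gene was silent, since a probe set can bind its transcript poorly. Nor is a signal above it by itself evidence of expression, since markers of other cells also read above it in this epithelial line.

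In the comparison of cysts with flat sheets, 9 channel and aquaporin genes rose, 35 fell and 78 did not pass. Of all genes 19.8% rose and 22.9% fell, against 7.38% and 28.7% of these 122. The median change was -0.11, against -0.05 for all genes. By probe set, 15 of 206 rose and 50 fell, where 16.7% and 22.0% of all tested probe sets did. The values of the 6 and 6 arrays did not overlap for 16 of the 122 genes, 8 higher and 8 lower in 3D, beside 22.6% of all genes. Since RNA came from whole cultures, fewer cells that express a gene and less of its RNA per cell cannot be told apart.

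**Figure D1:**
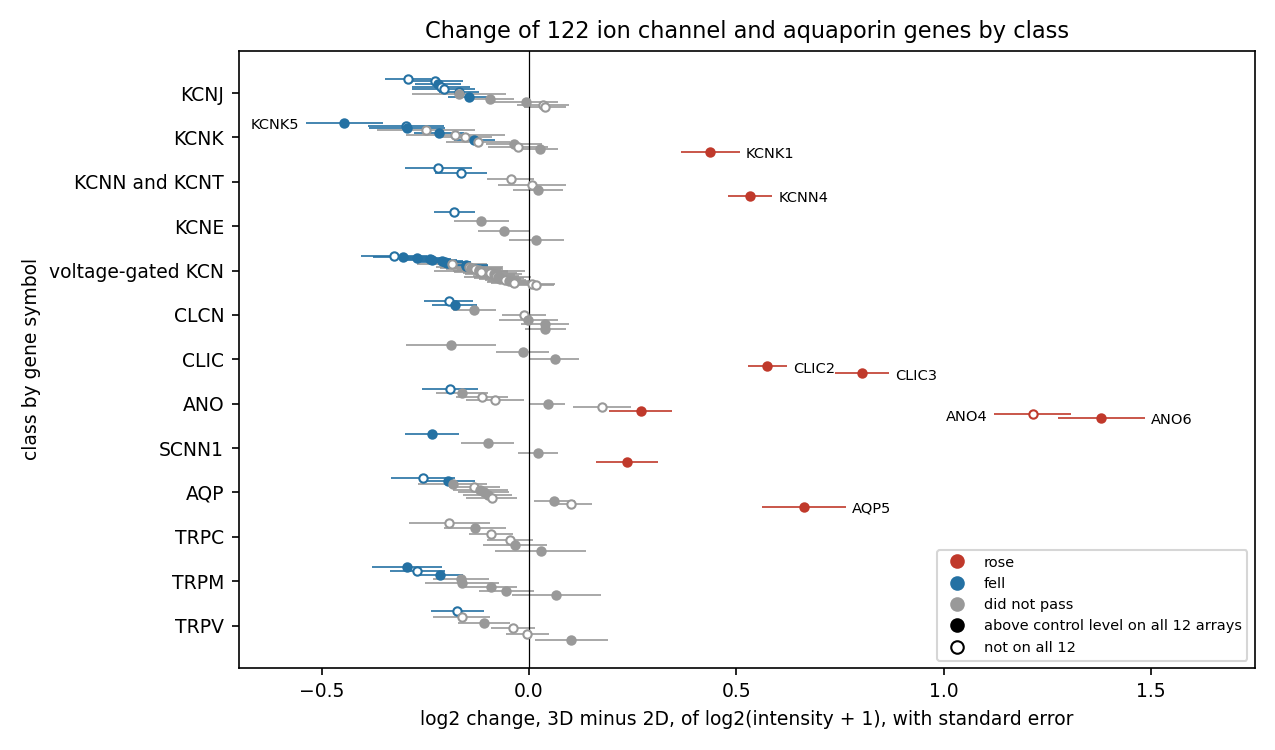
Log2 change (3D minus 2D, x axis, with standard error) of each of the 122 genes, grouped by symbol class (y axis); red rose, blue fell, grey did not pass, and filled points lay above the control level on all 12 arrays. The rises lie far to the right (ANO6 at 1.38, ANO4 at 1.21), whereas no fall reaches beyond KCNK5 at -0.45.

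The 9 rises had a median of 0.57 and ran from 0.24 to 1.38, beside a median of 0.35 for the rises of all genes. The 35 falls had a median of -0.21 and ran from -0.45 to -0.13, beside a median of -0.23 for the falls of all genes. A change of at least 2-fold was reached by ANO6 and ANO4 among the rises, where 1.85% of all genes rose that far, and by 0 of the falls (limma; 44 genes had a negative change at an unadjusted p under 0.05), where 0.271% of all genes fell that far. Among falls 32 of 35 were smaller than 0.3, as were 73.4% of the falls of all genes.

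The small falls stood beside a shift of the background, whose part in them was not tested. The mean of the 59 control probe sets was 5.03 ± 0.04 in 2D and 4.96 ± 0.02 in 3D (SD, n = 6 arrays each; exact two-sided permutation test, p = 0.00866), and 52 of the 59 were lower in 3D. Their changes ran from -0.22 to 0.10, and 14 of the 35 channel genes fell further than any of them. Of the 35, 19 lay above the control level on all arrays, 11 on some and 5 on none. Among the 68 genes above it on all arrays 8 rose and 19 fell, where 24.2% and 23.9% of all such genes did. Among the 20 above it on no array 0 rose and 5 fell (limma; 0 rose at an unadjusted p under 0.05), where 1.12% and 16.5% did. With quantile normalization between arrays the split was 11 rises and 21 falls, and with the RNA control ratio as a covariate it was 7 and 6. Of the 44 genes called, 11 kept their call under that covariate: ANO4, ANO6, AQP5, CLIC2, CLIC3, KCNN4 and SCNN1B higher, and CLCN4, KCNH6, KCNJ2 and KCNK5 lower. The other calls were lost under it, with 0 changes of sign. Since the ratio moved with the culture, a call lost in that fit need not mean a smaller change. Most lost calls with values given below did have a smaller change in it.

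**Figure D2:**
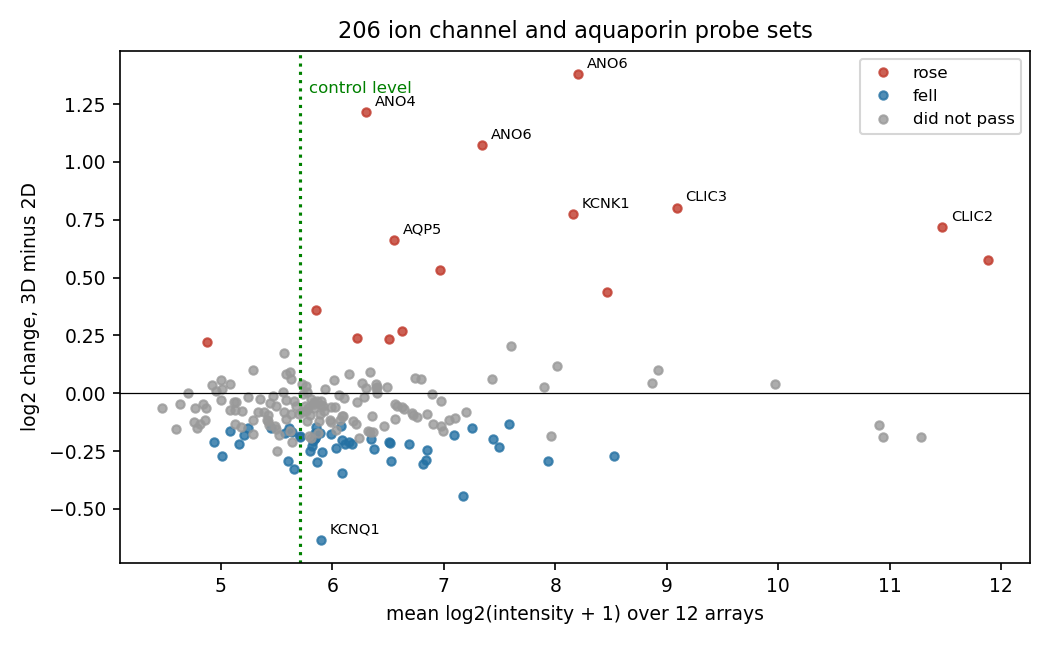
Log2 change (3D minus 2D, y axis) of each of the 206 probe sets against its mean log2(intensity + 1) over the 12 arrays (x axis); the dotted line is the mean control level of 5.71. Of the 50 probe sets that fell, most sit within a band just below 0 and near or above the line, and the rises of ANO6, CLIC3 and CLIC2 lie well to its right.

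Anoctamins held both of the genes that rose most, and 3 of 9 rose, 1 fell and the median was 0.05. Across all genes 19.8% rose and 22.9% fell. ANO6, a calcium-activated phospholipid scramblase that also conducts ions, had a lowest, median and highest log2 intensity of 7.33, 7.44 and 7.83 in 2D and of 8.54, 8.96 and 9.12 in 3D. Every 3D array was brighter than every 2D array, and the change was 1.38 (SE 0.10; limma adjusted p = 3.28e-08), or 2.60-fold. With the RNA covariate it was 0.97. Another ANO6 probe set rose by 1.07 (limma adjusted p = 5.07e-07), and the third, at or below the control level on all 12 arrays, changed by 0.06.

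ANO4, another member of the scramblase and chloride channel family, measured 5.59, 5.72 and 5.77 in 2D and 6.45, 6.98 and 7.14 in 3D. It lay above the control level on 2 of 6 arrays in 2D and on 6 of 6 in 3D, without overlap, and rose by 1.21 (SE 0.09; limma adjusted p = 4.11e-08). Its probe set carries a suffix of sets that can bind several related transcripts, so which family member it measured is uncertain. ANO9 measured 6.16, 6.57 and 6.62 in 2D and 6.65, 6.75 and 6.89 in 3D and rose by 0.27 (SE 0.08; limma adjusted p = 0.0107), whereas with the RNA covariate the change was 0.13 and the adjusted p was 0.521. ANO1, the calcium-activated chloride channel of secretory epithelia, lay above the control level on 0 of 6 arrays in 2D and 2 of 6 in 3D. Its change of 0.18 did not pass (limma adjusted p = 0.0584). ANO10 changed by 0.05 and did not pass, and ANO7 fell by 0.19 near the control level.

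**Figure D3:**
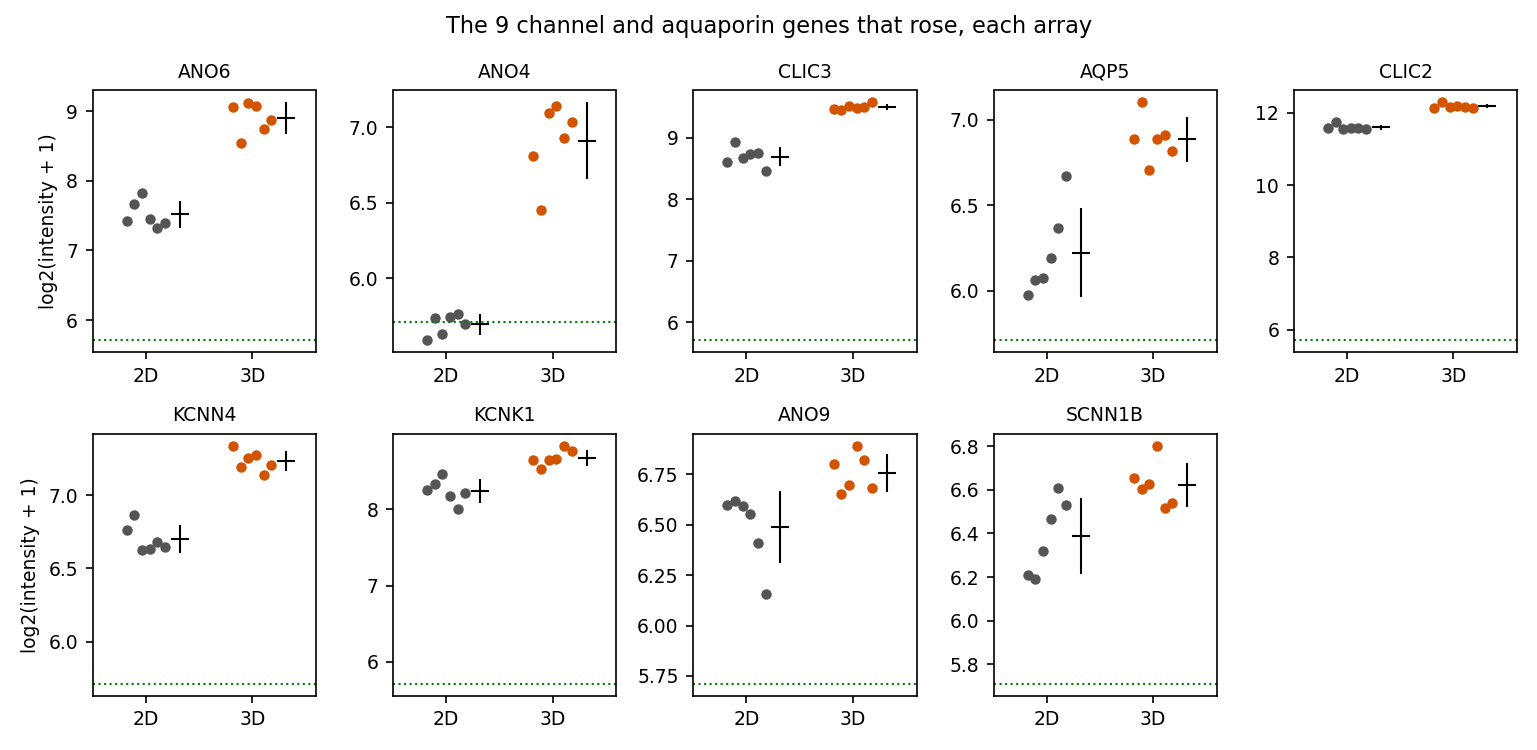
Log2(intensity + 1) on each array (points, y axis) of the 9 genes that rose, with the mean and SD of each group of 6 arrays (bars) and the mean control level (dotted). The 2D and 3D points do not overlap except for SCNN1B, where the highest 2D array at 6.61 exceeds the lowest 3D array at 6.52.

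The chloride intracellular channel proteins, which occur both as soluble proteins and in membranes, had 2 rises and 0 falls among 5 genes (limma; 0 fell at an unadjusted p under 0.05), and their median was 0.06. Across all genes 19.8% rose and 22.9% fell. CLIC3 measured 8.45, 8.71 and 8.93 in 2D and 9.44, 9.49 and 9.57 in 3D, and rose by 0.80 (SE 0.06; limma adjusted p = 6.97e-08). CLIC2 measured 11.54, 11.58 and 11.74 in 2D and 12.14, 12.15 and 12.28 in 3D, and rose by 0.57 (SE 0.05; limma adjusted p = 8.19e-08). Neither gene's groups overlapped, and the other CLIC2 probe set rose by 0.72. CLIC4, which takes part in lumen formation in tubes of endothelial cells, measured 11.11, 11.40 and 11.66 in 2D and 10.75, 11.25 and 11.41 in 3D. Its groups overlapped and its change of -0.19 did not pass (limma adjusted p = 0.179), but with the RNA covariate it was -0.68 (limma adjusted p = 2.84e-05). CLIC5 and CLIC6 changed by -0.02 and 0.06.

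In the CLCN family, whose members are plasma membrane chloride channels or chloride-proton exchangers of endosomes and lysosomes, 2 of 7 fell and 0 rose (limma; 0 rose at an unadjusted p under 0.05), with a median of -0.01. Across all genes 22.9% fell and 19.8% rose. CLCN4, an endosomal exchanger, measured 7.12, 7.15 and 7.28 in 2D, its 3D arrays ran from 6.86 to 7.14 with slight overlap, and it fell by 0.18 (SE 0.05; limma adjusted p = 0.0164). CLCN5, the exchanger of proximal tubule endosomes that is mutated in Dent disease, fell by 0.19 (limma adjusted p = 0.0173) and passed neither with quantile normalization nor with the RNA covariate. The endosomal exchanger CLCN3 changed by 0.04, the plasma membrane channel CLCN2 by 0.04 and the lysosomal exchanger CLCN7 by -0.0014, and these did not pass. CLCN1 and CLCN6 changed by -0.13 and -0.01 and did not pass.

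The sodium channel subunits did not move together. SCNN1A, the alpha subunit that the pore requires, measured 7.55, 7.61 and 7.68 in 2D and 7.23, 7.33 and 7.65 in 3D. Apart from 1 high 3D array the groups were separate, and it fell by 0.23 (SE 0.06; limma adjusted p = 0.0096). SCNN1B, the beta subunit, measured 6.19, 6.39 and 6.61 in 2D and 6.52, 6.61 and 6.80 in 3D, with overlap, and rose by 0.24 (SE 0.07; limma adjusted p = 0.0212). The gamma subunit SCNN1G changed by -0.10 (limma adjusted p = 0.217) and the delta subunit SCNN1D by 0.02, and neither passed.

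Both calls rest on 1 of 2 probe sets. The other probe set of SCNN1A changed by -0.08 and the other of SCNN1B by 0.01, and neither passed. The SCNN1A call was lost with the RNA covariate, at -0.11 (limma adjusted p = 0.509). That of SCNN1B was lost when 2D replicate 1, 2D replicate 2 or 3D replicate 4 was left out (limma adjusted p of 0.0506, 0.0519 and 0.0554 in that order), and when its probe sets were averaged, at 0.12 (limma adjusted p = 0.0911). SCNN1B and SCNN1G are neighbours in the RefSeq gene order of the dog.

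Regulators of the sodium channel were measured for 16 of 17 listed genes, of which 5 rose and 2 fell, with a median of 0.07. Those are 31.25% and 12.5%, against 19.8% and 22.9% of all genes. NEDD4, a ubiquitin ligase related to the one that removes the channel from the surface, lay at or below the control level on every 2D array, and its rise of 1.07 corresponds to at least 1.54-fold over that level (limma adjusted p = 6.45e-07). TSC22D3, the glucocorticoid-induced leucine zipper protein, measured 10.01, 10.18 and 10.46 in 2D and 11.03, 11.14 and 11.25 in 3D and rose by 0.90. WNK4, a kinase of distal salt handling, rose by 0.86, with an overlap of its groups, and TMPRSS4, a protease that activates the channel, rose by 0.68. The TMPRSS4 call was lost with the RNA covariate, at 0.31 (limma adjusted p = 0.0731). NEDD4L, the ligase that retrieves the channel, fell by 0.24, and SGK1, the aldosterone-induced kinase that inhibits NEDD4L, fell by 0.20.

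Among aquaporins 1 of 11 rose and 2 fell, where 19.8% and 22.9% of all genes did, and the aquaporin median was -0.11. AQP5, the water channel of apical membranes in salivary, sweat and airway glands, measured 5.98, 6.13 and 6.67 in 2D and 6.70, 6.89 and 7.10 in 3D. The groups did not overlap, although the highest 2D array came within 0.1 of the lowest 3D array, and it rose by 0.66 (SE 0.10; limma adjusted p = 8.44e-05), or 1.58-fold. With the RNA covariate the change was 0.99. In the RefSeq gene order AQP5 lies between AQP2 and AQP6, which changed by -0.12 and -0.11 and did not pass.

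AQP2, the vasopressin-regulated channel of the collecting duct, measured 6.00, 6.09 and 6.28 in 2D and 5.85, 5.99 and 6.16 in 3D. AQP1, the channel of the proximal tubule and thin descending limb, changed by -0.10, and AQP3, a basolateral channel of the collecting duct that also carries glycerol, changed by 0.06. These 3 channels did not pass (limma adjusted p = 0.168 for AQP2, 0.194 for AQP1 and 0.342 for AQP3). A further AQP3 probe set, of the kind that can bind related transcripts, rose by 0.36 (limma adjusted p = 9.86e-05). It read 5.57 to 5.84 in 2D, near the control level, and the third AQP3 probe set changed by -0.08 and did not pass. AQP3 passed at 0.11 when its probe sets were averaged (limma adjusted p = 0.0283). AQP8, which also carries ammonia, changed by -0.18 and did not pass (limma adjusted p = 0.0929), but did without 3D replicate 2 (0.00961).

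AQP11, an intracellular aquaporin that proximal tubules need, measured 5.95, 6.03 and 6.14 in 2D and 5.47, 5.79 and 6.00 in 3D, and fell by 0.26 (SE 0.08; limma adjusted p = 0.0172). Its groups overlapped and some 3D arrays lay below the control level. The call was lost with quantile normalization and with the RNA covariate, at -0.14 (limma adjusted p = 0.508). AQP7, a channel for water and glycerol, fell by 0.20 (limma adjusted p = 0.0287) and lost that call when any of 7 arrays was left out, with quantile normalization and with the RNA covariate, at -0.057. AQP4 and AQP9 lay below the control level on all arrays and AQP10 on some, and their changes of 0.10, -0.13 and -0.09 did not pass.

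Potassium channels made up 66 of the 122 genes, and 2 rose and 25 fell, with a median of -0.13. Those are 3.03% and 37.9%, against 19.8% and 22.9% of all genes. Of the 31 above the control level on all arrays, 2 rose and 14 fell, where 24.2% and 23.9% of all such genes did. KCNN4, the calcium-activated potassium channel that supplies the driving force for chloride secretion in many epithelia, measured 6.62, 6.66 and 6.86 in 2D and 7.14, 7.23 and 7.34 in 3D. The groups did not overlap, and it rose by 0.53 (SE 0.05; limma adjusted p = 7.67e-07). KCNK1, a leak channel of kidney tubules and other epithelia, measured 8.01, 8.23 and 8.47 in 2D and 8.53, 8.65 and 8.83 in 3D, again without overlap, and rose by 0.44 (SE 0.07; limma adjusted p = 0.000152). Its other probe set rose by 0.77, and with the RNA covariate the change of the probe set that stood for the gene was 0.22 (limma adjusted p = 0.127).

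The other leak channels fell or did not pass. In all 5 of 13 KCNK genes fell, where 22.9% of all genes did, and the KCNK median was -0.15. KCNK5, an acid-sensitive leak channel of proximal tubules and other epithelia, measured 7.24, 7.41 and 7.55 in 2D and 6.47, 7.03 and 7.11 in 3D. It was the gene that fell most, by 0.45 (SE 0.09; limma adjusted p = 0.00139), and 3D replicate 2 lay far below the other 3D arrays. Without that array the groups were still separate and the fall was 0.35 (limma adjusted p = 0.000108), and with the RNA covariate it was 0.76. KCNK9 and KCNK15, acid-sensitive and related channels, each fell by about 0.3 (changes of -0.30 and -0.29; limma adjusted p = 0.0186 and 0.0190). KCNK9 lay above the control level on 6 of 6 arrays in 2D and 5 of 6 in 3D, and both calls were lost with the RNA covariate.

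**Figure D4:**
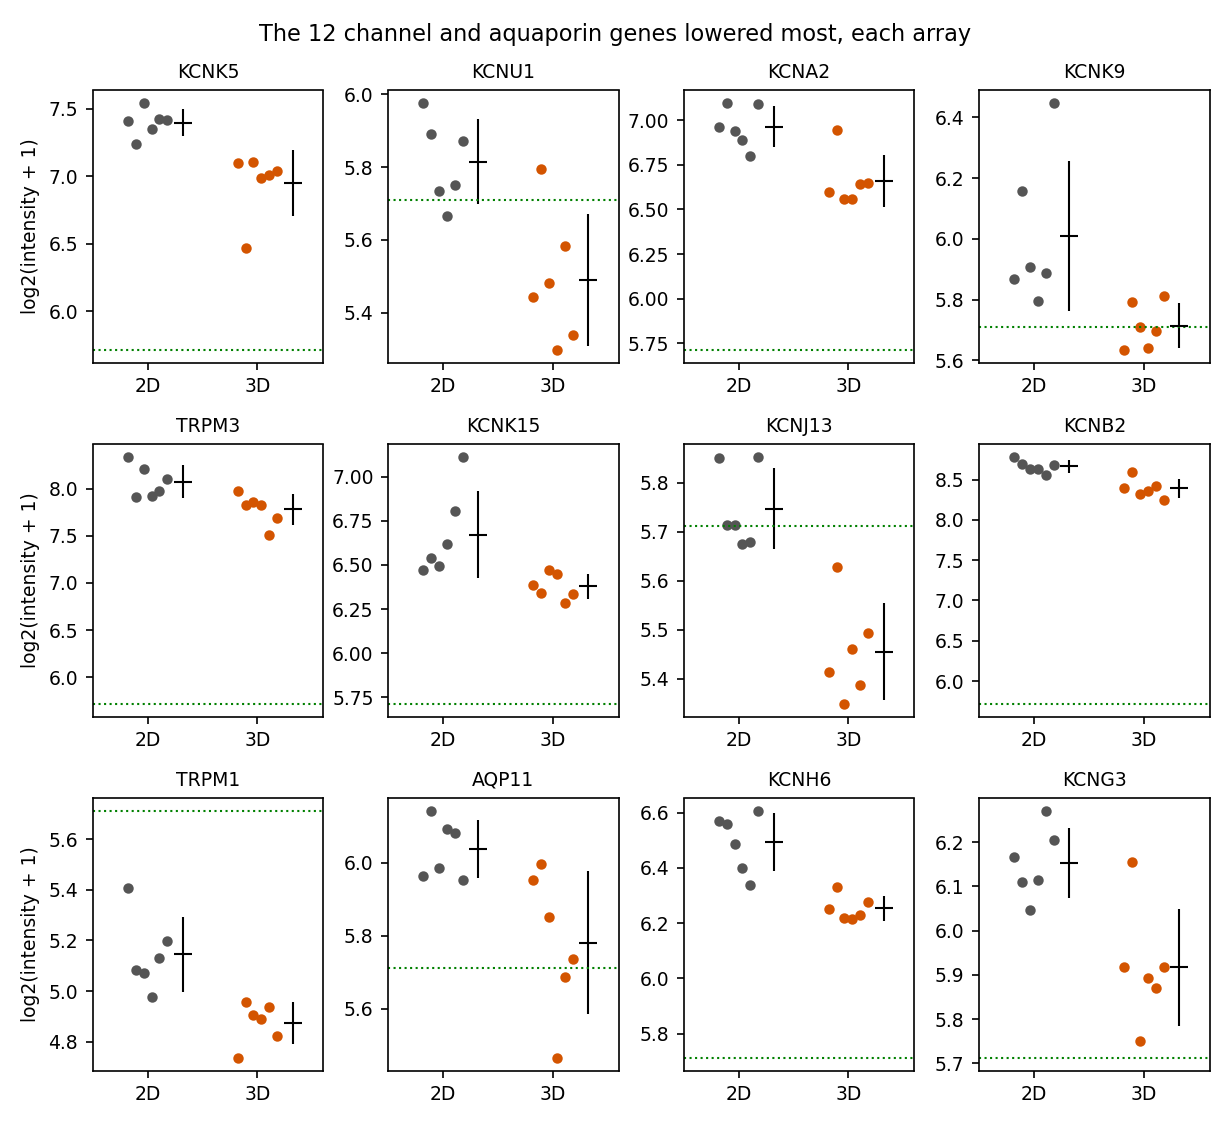
Log2(intensity + 1) on each array (points, y axis) of the 12 genes with the largest falls, with the mean and SD of each group of 6 arrays (bars) and the mean control level (dotted). KCNK5 and KCNH6 show separate groups above the control level, and TRPM1 lies below that level on every array.

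Inward rectifiers, which hold the resting potential and recycle or secrete potassium, had 7 falls and 0 rises among 12 genes (limma; 0 rose at an unadjusted p under 0.05), with a median of -0.17. Falls made up 58.3% of them, against 22.9% of all genes, of which 19.8% rose. Of the 5 above the control level on all 12 arrays 2 fell, where 23.9% of all such genes did. The remaining falls were of genes above that level on some arrays or on none. KCNJ13, a rectifier of transporting epithelia, measured 5.68, 5.71 and 5.85 in 2D and 5.35, 5.44 and 5.63 in 3D. It lay above the control level on 2 of 6 arrays in 2D and on 0 of 6 in 3D, so its difference (limma adjusted p = 0.000656) is given as a bound, at least 1.06-fold higher in 2D. That call was lost with the RNA covariate (limma adjusted p = 0.123). KCNJ15, which proximal tubule cells express, measured 6.13, 6.31 and 6.37 in 2D and 5.97, 6.03 and 6.21 in 3D and fell by 0.22 (limma adjusted p = 0.00608), or with the RNA covariate by 0.14 (limma adjusted p = 0.327). KCNJ1, the secretory potassium channel of the thick ascending limb and collecting duct, changed by -0.0072 (limma adjusted p = 0.948). KCNJ11, the pore subunit of ATP-sensitive channels, changed by -0.10 and did not pass. The other falls, of KCNJ2, KCNJ4, KCNJ5, KCNJ8 and KCNJ14, were by 0.14 to 0.23, and of the 7 only KCNJ2 kept its call with the RNA covariate, on arrays where it lay below the control level throughout.

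Of 31 voltage-gated and related genes 10 fell and 0 rose (limma; 0 rose at an unadjusted p under 0.05), and the median was -0.12. Falls made up 32.3% of them, against 22.9% of all genes, of which 19.8% rose. KCNQ1, the pore subunit that serves epithelial potassium recycling together with KCNE subunits, measured 7.43, 7.56 and 7.58 in 2D and 7.25, 7.35 and 7.44 in 3D and fell by 0.20 (SE 0.05; limma adjusted p = 0.00365). Its other probe set measured 5.85, 6.27 and 6.43 in 2D and 5.41, 5.54 and 5.93 in 3D and fell by 0.63 (limma adjusted p = 7.80e-05), which was the largest fall of the 206 probe sets. It lay above the control level on 6 of 6 arrays in 2D and on 1 of 6 in 3D. With the RNA covariate the call of the probe set that stood for KCNQ1 was lost, at -0.16.

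KCNB2, a delayed rectifier, measured 8.56, 8.66 and 8.78 in 2D and 8.25, 8.38 and 8.60 in 3D and fell by 0.27 (SE 0.06; limma adjusted p = 0.00188), while its other probe set changed by 0.0029. The call of KCNB2 was lost with the RNA covariate, at -0.18 (limma adjusted p = 0.219). KCNH6, of the ether-a-go-go-related channels, measured 6.34, 6.52 and 6.61 in 2D and 6.22, 6.24 and 6.33 in 3D and fell by 0.24 (SE 0.05; limma adjusted p = 0.00196), with its groups narrowly separate. KCNU1, known from sperm, fell by 0.33 and lay above the control level on 3 and 1 of 6 arrays. KCNG3, a modifier subunit that does not conduct alone, fell by 0.24. Both calls were lost with the RNA covariate, at -0.19 for KCNU1 and -0.019 for KCNG3.

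KCNA2 gave opposite calls on different probe sets. The one that stood for the gene measured 6.80, 6.95 and 7.10 in 2D and 6.56, 6.62 and 6.95 in 3D and fell by 0.30 (limma adjusted p = 0.00311), with 3D replicate 2 alone among the 2D values. Another, at or below the control level on all 12 arrays, rose by 0.22 (limma adjusted p = 0.00716). The mean over its probe sets changed by -0.05 (limma adjusted p = 0.405), and with the RNA covariate the fall was not called, at -0.19 (limma adjusted p = 0.287).

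Of 4 KCNE genes, which code for accessory subunits, KCNE5 fell, by 0.18 and below the control level, whereas KCNE2, KCNE3 and KCNE4 changed by -0.12, -0.06 and 0.02 and did not pass. Among channels opened by calcium other than KCNN4, the small-conductance channels KCNN2 and KCNN3 fell by 0.17 and 0.22 below the control level and lost their calls under several alternatives. Partner subunits outside the symbol rule were measured for 15 of 18 listed genes, of which 2 rose and 1 fell. Those are 13.3% and 6.67%, against 19.8% and 22.9% of all genes. KCNMB4, a beta subunit of the large-conductance calcium-activated channel, rose by 0.34 (limma adjusted p = 0.00795), and with the RNA covariate the call was lost at 0.40 (limma adjusted p = 0.0845). The pore gene of that channel, KCNMA1, changed by -0.10 (limma adjusted p = 0.258). CLNS1A, once described as a chloride conductance regulator, rose by 0.15, and KCNIP4, a partner of the KCND channels, fell by 0.16 below the control level. The CLNS1A call was lost with the RNA covariate (limma adjusted p = 0.160) and with quantile normalization (0.0713), and that of KCNIP4 was lost under 13 alternatives.

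The transient receptor potential channels of the symbol rule showed few changes, and 0 of 20 rose (0 of 6 TRPC, 0 of 8 TRPM and 0 of 6 TRPV genes; limma; 0 in each at an unadjusted p under 0.05). Outside the rule, TRPA1 and MCOLN3, of other transient receptor potential families, rose by 0.80 and 0.41. MCOLN1 and MCOLN2 fell, by 0.55 and 0.27. Of all genes 19.8% rose and 22.9% fell. In the TRPM family 3 of 8 fell, with a median of -0.16. TRPM3, a cation channel opened by heat and steroids, measured 7.91, 8.04 and 8.34 in 2D and 7.51, 7.83 and 7.98 in 3D, with overlap, and fell by 0.29 (SE 0.09; limma adjusted p = 0.0130). Its other 3 probe sets did not pass, and their mean with it changed by -0.04. TRPM8, the cold receptor, fell by 0.21, and TRPM1 fell by 0.27 below the control level. With the RNA covariate the changes of TRPM3, TRPM8 and TRPM1 were -0.39, -0.20 and -0.25 and did not pass (limma adjusted p = 0.0623, 0.157 and 0.132).

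TRPM4, a calcium-activated channel for monovalent cations, changed by -0.16 and did not pass (limma adjusted p = 0.0636), while another of its probe sets rose by 0.24 (limma adjusted p = 0.00247). TRPM7, a channel fused to a kinase, changed by 0.07, and TRPM6, the magnesium channel of the distal tubule, by -0.16, and neither passed. TRPV4, which responds to swelling and shear, measured 8.58, 8.94 and 9.09 in 2D, and its 3D arrays ran from 8.80 to 9.09 with wide overlap. It changed by 0.10 and did not pass (limma adjusted p = 0.369). TRPV5, an apical calcium channel of the distal tubule, fell by 0.17 (-0.071 and not called with the RNA covariate), and its close relative TRPV6 changed by -0.11 and did not pass. Of the 6 TRPC genes 0 fell as well (limma; 0 at an unadjusted p under 0.05), with a median of -0.07, but with the RNA covariate TRPC1 changed by -0.43 (limma adjusted p = 0.00566), where without it the change was 0.03. Among probe sets that did not stand for the gene, 1 of 4 of TRPC5 and 1 of 4 of TRPC7 fell, the latter by 0.29. TRPC4 and TRPC7 passed, as falls, when their probe sets were averaged.

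Several probe sets named 49 of the 122 genes, and for 18 of these no probe set was called. In 4 genes every probe set was called the same way: CLIC2 and KCNK1 rose, and KCNQ1 and KCNJ8 fell. Only KCNA2 had calls in both directions. Of the 122 probe sets that stood for genes, 38 carry a suffix of sets that can bind several related transcripts, and these held 10 of the 35 falls and 2 of the 9 rises.

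**Figure D5:**
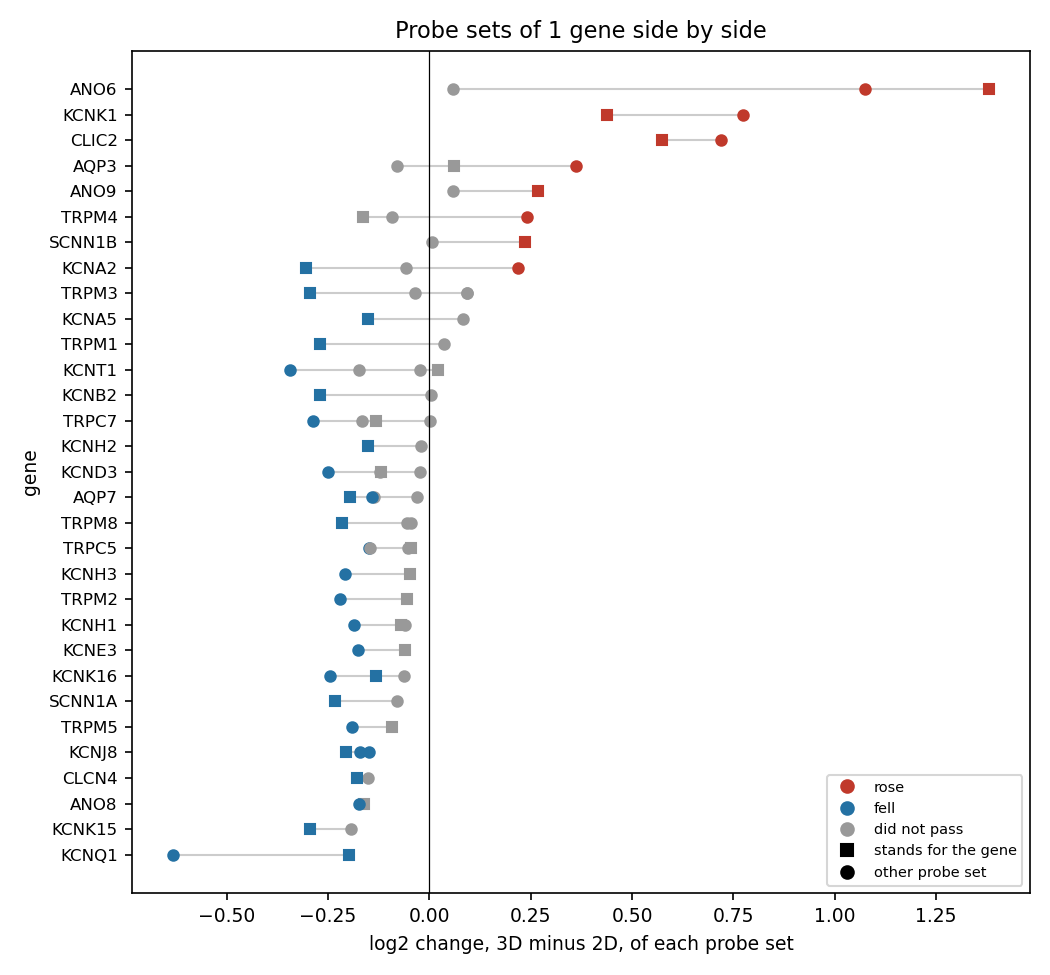
Log2 change (3D minus 2D, x axis) of every probe set of the 31 genes with several probe sets and at least 1 call (y axis); squares stand for the gene, and red rose, blue fell and grey did not pass. ANO6 spans 0.06 to 1.38, CLIC2 holds together at 0.57 and 0.72, and KCNA2 spreads to both sides of 0.

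Over all 22 alternatives, 9 of the 44 calls held wherever the gene was tested. They were the rises of ANO4, ANO6, AQP5, CLIC2, CLIC3 and KCNN4 and the falls of CLCN4, KCNH6 and KCNK5. The probe sets that stood for ANO4, CLCN4 and KCNH6 carry the suffix of sets that can bind several related transcripts. The other CLCN4 probe set, above the control level on no array, changed by -0.15 and did not pass.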

How the data were processed

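RNA of MDCK cells was measured on 12 arrays, 6 per culture. The deposited file gives an intensity, linear and never negative, for each probe set on each array. It was made with GCRMA, per the submitters' processing notes; its background model and any scaling are not stated there. Values were used as log2(intensity + 1) and not normalized again. The added 1 slightly shrinks changes of dim genes. Normalizing again lowered the count of gene falls, from 35 to 26 with median centring and to 21 with quantile normalization. The number of arrays limits the precision.

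Affymetrix control probe sets (111) were left out. The culture was the only term of the linear model, fitted with limma 3.58.1 (lmFit, eBayes; R 4.3.3), and p-values were adjusted over 42924 probe sets by Benjamini-Hochberg, at a threshold of 0.05. Genes were named from the platform annotation. Of the 122 genes, 117 were found by gene ID in RefSeq's assembly UU_Cfam_GSD_1.0, where 0 had another symbol, and gene order was taken from it. The control level was the 95th percentile of 59 control probe sets on each array, without the hybridisation spikes. Single quality values were compared by exact permutation tests.

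Named genes are the 12 largest rises and falls that passed, the brightest of each class, the SCNN1, AQP, CLCN and CLIC genes, and up to 4 of each related list. Further genes were named after their values were seen. The genes, lists and rules were chosen with earlier results of these data known. The comparison of falls with control probe sets was added after the data were seen.

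Alternatives were quantile normalization, median centring, a pseudocount of 16, a filter on dim probe sets, averaging a gene's probe sets, trend and robust priors, array weights, a block for the replicate number, the RNA control ratio as a covariate, leaving out 2D replicate 6 with 3D replicate 2, and leaving out single arrays. The fit was tested on simulated data. Figures were drawn with matplotlib 3.10.9.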

Additional observations from a re-analysis of the deposited data

Results flagged for a closer look

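In 16 of 174 groups of 6 arrays examined, the highest or the lowest array stood apart from the others by more than Dixon's 95% critical value, which chance alone gives in about 1 of 20 groups. In 6 of the 16 the array was 3D replicate 2. That array was the lowest for KCNK5 (6.47), CLIC4 (10.75), TMPRSS4 (6.99) and SLC38A2 (7.41), and the highest for CLIC2 (12.28) and KCNA2 (6.95). In 2D, replicate 1 was the highest for KCNJ5 (5.89) and KCNK16 (7.78). Replicate 2 was the highest for CLIC2 (11.74) and KCNK7 (7.04) and the lowest for KCNQ1 (7.43). Replicate 4 was the lowest for KCNH2 (7.16), replicate 5 the lowest for AQP9 (4.95) and replicate 6 the highest for KCNN3 (5.68). In 3D, replicate 6 was the lowest for CLCN1 (6.05) and replicate 1 the lowest for MCOLN1 (7.32). All values are log2 intensities.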

How the results depend on the processing

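The count of falls depended more on the processing than that of rises. The falls were also smaller, at a median of -0.21 against 0.57 for the rises. With the RNA control ratio as a covariate, 6 genes and 10 probe sets fell, and with quantile normalization 21 and 27 did, against 35 and 50. The ratio moved with the culture, so holding it makes the change less precise, and a lost call need not mean a smaller change. TRPM3 and KCNMB4 lost their calls under it although their changes grew in size. Most lost calls with values given here had smaller changes under it, among them KCNG3, AQP7, SCNN1A, AQP11, ANO9 and KCNK1. Signs turned with the covariate for SLC38A2 (-0.073, adjusted p = 0.827) and TRPC1 (-0.43, adjusted p = 0.00566). The cause was not tested. Leaving out each array gave 8 to 10 gene rises and 25 to 41 gene falls, and 14 to 16 and 34 to 62 by probe set; without 3D replicate 2, 41 genes fell. With the highest control probe set as the level, 63 probe sets lay above it. Median centring gave 10 rises and 26 falls. The filter on dim probe sets left 9 of the 44 called genes untested.

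The labels do not say that replicate numbers pair arrays, so they were not taken as pairs: correlations of same-numbered deviations were positive in 6 of 6 but ran from 0.00084 to 0.36, with 3 over 0.1. As a hint of pairing from the data, 4 of 6 2D arrays correlated best with their own number. With the replicate block, 10 genes rose and 37 fell, and 17 and 53 probe sets did. The block ended the calls of KCNJ4, KCNN2 and TRPV5 and added 6. Signal near the control level limits what the 34 genes above it on some arrays and the 20 above it on none can show.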

Other observations

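Channels of other families were measured for 34 of 37 listed genes, of which 7 rose and 7 fell, with a median of -0.06. Those shares, 20.6% each, lay near the 19.8% and 22.9% of all genes. LRRC8A, the obligatory subunit of the volume-regulated anion channel, measured 7.94, 8.10 and 8.35 as the lowest, median and highest log2 intensity in 2D and 8.93, 9.12 and 9.32 in 3D. The groups did not overlap, and it rose by 1.02 (SE 0.08; limma adjusted p = 2.79e-08). TRPA1, a transient receptor potential channel opened by irritants, rose by 0.80 (limma adjusted p = 1.64e-08), and HVCN1, a voltage-gated proton channel, rose by 0.66 (limma adjusted p = 3.17e-07). MCOLN1, a lysosomal cation channel, fell by 0.55 (limma adjusted p = 0.00805), and that call was lost with the RNA covariate, at -0.19.

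Of 18 measured pumps, exchangers and cotransporters among 23 listed, 5 rose and 4 fell, with a median of 0.0057. Those are 27.8% and 22.2%, against 19.8% and 22.9% of all genes. FXYD5, an auxiliary subunit of the sodium pump, measured 8.33, 8.58 and 8.74 in 2D and 9.61, 9.68 and 9.72 in 3D and rose by 1.13 (SE 0.06; limma adjusted p = 6.37e-10). FXYD2, another auxiliary subunit of the pump, fell most of the list, from 13.78, 13.94 and 13.97 in 2D to 13.09, 13.11 and 13.29 in 3D, a change of -0.76 (SE 0.05; limma adjusted p = 6.87e-09) without overlap. SLC12A7, a potassium-chloride cotransporter, rose by 0.57, and SLC4A7, a sodium-bicarbonate cotransporter, by 0.44, and both calls were lost with the RNA covariate. SLC12A2, the basolateral cotransporter that loads chloride for secretion, rose by 0.17.

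Genes of the response to high tonicity were measured for 7 of 7, and 3 rose and 1 fell, with a median of 0.05. Across all genes 19.8% rose and 22.9% fell. SLC6A12, the betaine transporter first cloned from MDCK cells, measured 5.50, 5.70 and 5.76 in 2D and 6.44, 6.52 and 6.60 in 3D and rose by 0.85 (SE 0.05; limma adjusted p = 2.62e-09). It lay above the control level on 1 of 6 arrays in 2D and on 6 of 6 in 3D. AKR1B1, the aldose reductase that makes sorbitol, rose by 0.66 (limma adjusted p = 1.23e-07). SLC6A6, the taurine transporter, fell by 0.28 (limma adjusted p = 0.000289), a call lost with the RNA covariate at -0.22 (limma adjusted p = 0.0624). SLC38A2, an amino acid transporter, rose by 0.48 (limma adjusted p = 0.0201) with 1 low array, and that call too was lost with the covariate. The factor NFAT5, which drives these genes in hypertonic medium, was among the 3 that did not pass.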
